A study of Homo sapiens with 4 samples.

Results

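The genes described here are MIR100, its host transcript MIR100HG, its neighbours MIRLET7A2 and MIR125B1, and the paralogous microRNA clusters: MIR99A, MIRLET7C and MIR125B2 with their host MIR99AHG, and MIR99B with MIR125A. They were chosen by name, as the induced microRNA gene and its relatives, and each was read from a probeset whose annotation names that gene alone. Genes without such a probeset were left out by that choice, so each of the 10 had 1, out of 22465 named genes on the array. Of the 10, 8 are microRNA genes and 2 are long noncoding host genes. A mean log2 signal of 4.035, the median over all probesets, was used as the signal cutoff. MIR100, MIR100HG, MIRLET7A2 and MIR99AHG passed it, and the other 6 did not. The control signals of MIR100, MIR100HG, MIRLET7A2 and MIR99AHG also lay above it, so none of them passed through induction alone.

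SUM159 and MDA-MB-231 are established human breast cancer lines of the triple-negative kind. Both carried a lentiviral plasmid that turns on miR-100 in response to a drug, named doxycycline in some label fields and tetracycline in others. The control cells of each line carry the same plasmid and grew for 1 week without the drug, and the induced cells grew for 1 week with it. Each line is 1 puromycin-selected population, and the media differ, Ham's F12 with hydrocortisone and insulin for SUM159 and DMEM for MDA-MB-231, so line and medium cannot be told apart. No array of cells without the plasmid, or of plasmid-free cells given the drug, was analysed here, so effects of the drug and of miR-100 cannot be told apart. SUM149 stands in the series' design text in place of SUM159; the names of the samples themselves are used here. Each line was measured on 1 control and 1 induced array, 4 in all and thus without replicates, so a difference between states within a line has no test and their number limits the precision. Of the mesenchymal markers, the filament gene VIM had log2 signals of 15.20 to 16.23, while the cadherin gene CDH2 had 12.93 and 13.00 in SUM159 but 4.54 and 4.45 in MDA-MB-231. In contrast, the hormone receptor genes ESR1 and PGR lay below the cutoff at 2.98 to 3.68. Of the 4 blood and endothelial markers PTPRC, CD3E, PECAM1 and CDH5, 3 lay below it and CD3E just above, with signals of 2.93 to 4.56 in all. The epithelial cadherin gene CDH1 was also below it, at 3.77 to 4.03, while the epithelial keratin genes KRT8 and KRT18 had signals of 10.31 to 13.37. KRT19 and EPCAM, also epithelial, were at 4.55 to 4.96 in SUM159 and at 6.11 to 9.69 in MDA-MB-231.

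MicroRNAs are short RNAs cut from a hairpin in a longer primary transcript, first in the nucleus and then in the cytoplasm, and loaded into Argonaute proteins. They pair through the seed near their 5′ end with sites in messenger RNAs, whose stability and translation they lower. In vertebrates a miR-99/100 gene, a let-7 gene and a miR-125 gene tend to lie in that order within one transcription unit, and the human genome holds several copies of this arrangement. Members of let-7 restrain growth and oncofetal genes, miR-99/100 acts on mTOR signalling, and miR-125 acts on apoptosis genes and on LIN28.

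The mature sequences of the 5′ arms are shown because they define which of these genes share a seed with the induced miR-100 and which do not. The RefSeq table, on GRCh38.p14, gave all of them, and the capitals mark the seed, bases 2 to 8 counted from the 5′ end.
miR-100-5p: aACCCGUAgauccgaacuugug
miR-99a-5p: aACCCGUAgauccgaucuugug
miR-99b-5p: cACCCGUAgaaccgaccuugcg
let-7a-5p: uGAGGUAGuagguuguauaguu
let-7c-5p: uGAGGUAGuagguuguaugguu
miR-125b-5p: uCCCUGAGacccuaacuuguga
miR-125a-5p: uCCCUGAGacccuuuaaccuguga

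The 8 microRNA genes thus fall into 3 seed groups. MIR100, MIR99A and MIR99B share 1 seed, and no other mature microRNA of the table has it. The mature miR-99a-5p differs from miR-100-5p at 1 position, A16U, counted from the 5′ end, and miR-99b-5p at 4, which are A1C, U11A, A16C and U21C. MIRLET7A2 and MIRLET7C share the let-7 seed, which 14 genes of the table carry, and let-7c-5p differs from let-7a-5p by A19G. MIR125B1 and MIR125B2 give the same mature miR-125b-5p, and MIR125A shares its seed. These genes of each group can therefore overlap in their targets, while the probesets read the genes and not the mature forms.

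Probesets of near-identical genes can share probes, so the hairpins of MIR100 and its seed relatives are shown to give how alike they are. At 77.1% (MIR99A) and 60.7% (MIR99B) identity with MIR100, they are not near-identical over their full length. Capitals mark the mature 5′ arm. MIR100 lies at chr11:122152229-122152308 on the minus strand, MIR99A at chr21:16539089-16539169 on the plus strand and MIR99B at chr19:51692612-51692681 on the plus strand, all on GRCh38.p14.
MIR100: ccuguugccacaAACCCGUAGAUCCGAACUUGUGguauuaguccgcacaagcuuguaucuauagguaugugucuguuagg
MIR99A: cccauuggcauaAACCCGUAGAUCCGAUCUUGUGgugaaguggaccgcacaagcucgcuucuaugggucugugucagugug
MIR99B: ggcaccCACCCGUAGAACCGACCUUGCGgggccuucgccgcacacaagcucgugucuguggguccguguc

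In a global alignment the MIR99A hairpin was 77.1% identical to that of MIR100, and the longest run of bases they share was 16. The MIR99B hairpin was 60.7% identical, with a longest shared run of 9 bases. The MIRLET7A2 and MIR125B1 hairpins, on the same transcript as MIR100, were 48.2% and 52.6% identical, with longest runs of 6 and 8 bases. In RefSeq, MIR100, MIRLET7A2 and MIR125B1 lie inside the lncRNA gene MIR100HG, which spans 394543 bases, and MIR99A, MIRLET7C and MIR125B2 lie inside the lncRNA gene MIR99AHG, of 561240 bases. MIR99B and MIR125A lie inside the protein-coding gene SPACA6. Between the hairpins of MIR100 and MIRLET7A2 there are 5635 bases, and between those of MIRLET7A2 and MIR125B1 46677 bases, so the cluster on chromosome 11 is spread out. On chromosome 21, 658 bases separate MIR99A from MIRLET7C. MIRLET7C ends there at base 16539911 and MIR125B2 starts at base 16590237, so that cluster is spread out as well.

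MIR100 was the gene that stood apart. Its log2 signal was 6.56 in control and 18.18 in induced SUM159 cells, and 8.11 in control and 17.29 in induced MDA-MB-231 cells. Both induced arrays were far above both control arrays. The differences of 11.62 and 9.18 log2 units correspond to 3148-fold and 580-fold on the linear scale of the signal. How the deposited values, which reach 19.86, were scaled is not given in the sources used, so these folds are of that signal and not of RNA amounts. Of 14418 genes above the cutoff, MIR100 had the highest difference in each line. Groups by state that do not overlap, as for MIR100, occurred in 11.3% of these genes, and a difference past 1.5-fold higher in both lines in 0.153%.

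The order of the lines turned with induction. Before it, the MIR100 signal was higher in MDA-MB-231 by 1.55 log2 units, and after it lower there by 0.89. The line difference was past 1.5-fold on both pairs, as it was for 43.2% of the genes on the control arrays and 44% on the induced arrays. SUM159 had both the lowest and the highest of the 4 signals. The induction difference in SUM159 exceeded that in MDA-MB-231 by 2.44 log2 units, a gap for which 1 array per group gives no spread. The probeset does not separate mature miR-100, its hairpin or a longer transcript of the plasmid or the endogenous locus, and the share of each was not tested. In such bulk samples, fewer cells that carry an RNA and less of it per cell cannot be told apart.

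In limma over both lines, with the cell line as a block, the mean MIR100 difference was 10.40 ± 0.65 log2 units (SE, 2 lines), with an adjusted p of 0.918 over 14418 genes. Here and below, ± gives limma's moderated SE. It draws on the spread of all genes and is not the SE of a gene's own differences alone. This fit has 1 residual degree of freedom, and its residual is the gap between the responses of the lines. It called 0% of the genes, and 556 genes (3.86%) had an unadjusted p under 0.05, MIR100 among them with 0.000189. The MIR100 difference thus did not pass the adjusted threshold, although both lines had it in the same direction.

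**Figure D1:**
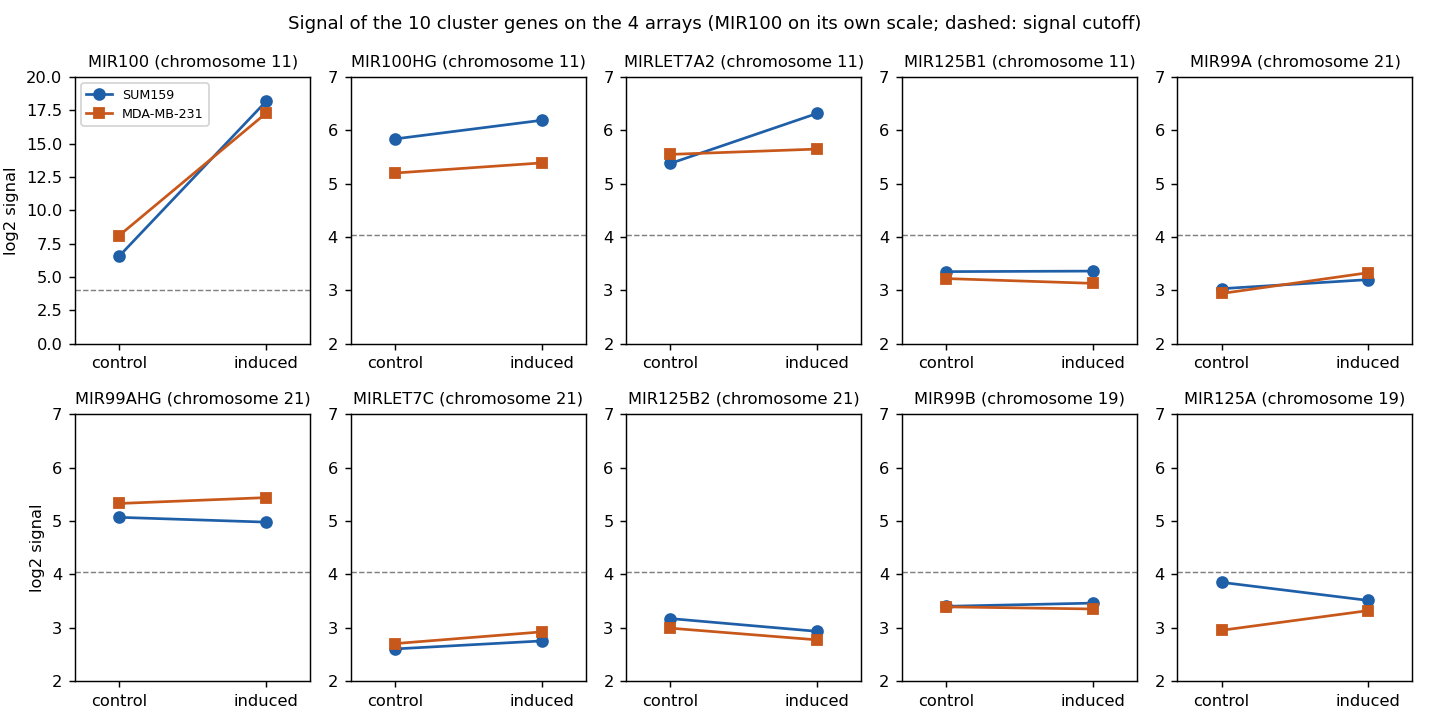
Log2 signal (vertical axis) of each of the 10 cluster genes in control and induced cells (horizontal axis), with 1 point per array, blue circles for SUM159 and orange squares for MDA-MB-231; the dashed line is the signal cutoff of 4.035. MIR100, on its own scale, goes from 6.56 and 8.11 to 18.18 and 17.29, while the 9 others stay between 2.60 and 6.32.

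The host transcript did not follow MIR100 in size. MIR100HG, the long noncoding RNA from whose gene MIR100, MIRLET7A2 and MIR125B1 are cut, had log2 signals of 5.84 and 6.19 in control and induced SUM159 cells and of 5.20 and 5.39 in MDA-MB-231. The states overlapped, since the induced MDA-MB-231 array was below the control SUM159 array. Its differences were 0.35 and 0.19, a fold of 1.27 and 1.14. In SUM159, 20.9% of the genes above the cutoff differed by at least as much in either direction, and in MDA-MB-231 37.8%. The mean over lines was 0.27 ± 0.12 (SE, 2 lines), with a limma adjusted p of 0.918.

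MIR100HG was lower in MDA-MB-231 than in SUM159 on every pair of arrays. The difference was -0.64 between the control arrays and -0.80 between the induced arrays. With the state as a block, limma gave a mean of -0.72 ± 0.12 (SE, 2 pairs of arrays) and an adjusted p of 0.0194. Of the 4 members above the cutoff, the only ones in this fit, MIR100HG was the 1 that passed. The 2 arrays of a line are control and induced cells of 1 population, and the fit has 1 residual degree of freedom. Its p thus does not measure a spread between cultures. That fit called 44.6% of all genes, 20.8% lower and 23.8% higher in MDA-MB-231, and 53.2% had an unadjusted p under 0.05, and the arrays of the lines did not overlap for 76% of them, so a call between these lines is common. The direction is the opposite of that of MIR100 in control cells, where MDA-MB-231 had the higher signal.

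MIRLET7A2, the let-7a gene next to MIR100, had signals of 5.38 and 6.32 in control and induced SUM159 cells and of 5.55 and 5.65 in MDA-MB-231. The states did not overlap, as in 11.3% of the genes above the cutoff. The induced SUM159 array was the highest, and the other 3 arrays lay between 5.38 and 5.65. The difference was 0.94 in SUM159, a fold of 1.92, and 0.10 in MDA-MB-231, a fold of 1.07. Of the genes above the cutoff, 1.66% (SUM159) and 63.9% (MDA-MB-231) differed by at least as much in either direction. In SUM159 it ranked 124 of 14418 genes from the top, and 5 of 1040 microRNA genes, and in MDA-MB-231 4735 and 300. The gap of 0.84 between the lines was not tested. Over both lines the mean was 0.52 ± 0.25 (SE, 2 lines), with a limma adjusted p of 0.918, and the lines themselves differed by -0.25 ± 0.25 (SE, 2 pairs; limma adjusted p = 0.477).

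MIR125B1, which encodes miR-125b and is the last of the cluster, was below the cutoff on all 4 arrays. Its signals were 3.35 and 3.36 in SUM159 and 3.22 and 3.13 in MDA-MB-231, with differences of 0.01 and -0.09. The 3 microRNA genes of the same host thus had differences of 11.62, 0.94 and 0.01 in SUM159. BLID, a small protein-coding gene that overlaps MIR100HG in RefSeq, had signals of 4.99 and 5.46 in SUM159 and 6.26 and 6.15 in MDA-MB-231.

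On chromosome 21, MIR99AHG, the host of MIR99A, MIRLET7C and MIR125B2, had signals of 5.07 and 4.98 in SUM159 and of 5.33 and 5.44 in MDA-MB-231. Both MDA-MB-231 arrays were above both SUM159 arrays, and the arrays of the lines did not overlap for 76% of the genes above the cutoff. The differences on induction were -0.09 and 0.11, and the mean over lines was 0.01 ± 0.13 (SE, 2 lines; limma adjusted p = 0.99). Between lines MIR99AHG was higher by 0.36 ± 0.13 in MDA-MB-231 (SE, 2 pairs), with a limma adjusted p of 0.0974. This is opposite in sign to MIR100HG, and the difference in sign was not tested.

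MIR99A, the closest relative of MIR100 in sequence, had signals of 3.03 and 3.20 in SUM159 and of 2.94 and 3.33 in MDA-MB-231. Both induced arrays were above both control arrays, but all 4 lay below the cutoff, where the states did not overlap for 28.6% of the genes. Its differences were 0.17 and 0.39. In MDA-MB-231, 4.31% of the genes below the cutoff differed by at least as much in either direction, and in SUM159 31.8%. The MIR100 and MIR99A hairpins share a run of 16 bases, and whether the MIR99A probeset reads MIR100 transcripts was not tested.

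MIRLET7C, a let-7 gene, had signals of 2.60 and 2.75 in SUM159 and of 2.70 and 2.92 in MDA-MB-231. MIR125B2, the other source of miR-125b, had signals of 3.17 and 2.93 in SUM159 and of 2.99 and 2.77 in MDA-MB-231. The first had differences of 0.15 and 0.22 and the second of -0.24 and -0.22, so both had the same sign across lines. As for MIR99A and 28.6% of the genes below the cutoff, the states did not overlap for either gene. The induced arrays were above for MIRLET7C and below for MIR125B2. For each of these values, between 16.4% and 36.9% of the genes below the cutoff differed by at least as much.

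On chromosome 19, MIR99B, the third gene with the miR-100 seed, had signals of 3.40 and 3.46 in SUM159 and of 3.39 and 3.35 in MDA-MB-231. The states overlapped, and the highest and the lowest signal, 3.46 and 3.35, were both from induced cells. MIR125A had signals of 3.85 and 3.51 in SUM159 and of 2.95 and 3.32 in MDA-MB-231. It was lower by 0.34 on induction in SUM159 and higher by 0.37 in MDA-MB-231, values that 8.50% and 5.21% of the genes below the cutoff reached in either direction. SPACA6, the coding gene that holds both, had signals of 4.48 to 4.68.

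Counted together, 2 of the 10 genes, MIR100 and MIRLET7A2, were past 1.5-fold higher in SUM159 and 1, MIR100, in MDA-MB-231, and 0 were past it lower in either line. Among all genes above the cutoff, 3.95% were past 1.5-fold higher and 3% lower in SUM159 (6.95% either way), and in MDA-MB-231 1.69% were higher and 0.784% lower (2.48% either way). Of the 6 members below the cutoff, 0 were past 1.5-fold, beside 0.485% higher and 0.994% lower of all such genes in SUM159 (1.48% either way). In MDA-MB-231 these shares were 0.261% and 0.596% (0.857% either way). Of all genes past 1.5-fold, 56.9% (SUM159) and 68.3% (MDA-MB-231) were higher as deposited, 47.8% and 60.7% after quantile normalization, and 71.7% and 77.9% after centring each array on its median. Without MIR100, the other 9 had a median difference of 0.06 (SUM159) and 0.11 (MDA-MB-231), beside medians of 0.00 and 0.01 over all genes above the cutoff and -0.06 and -0.03 below it. Of these 9, 4 were higher in both lines, 1, MIR125B2, was lower in both, and 4 went opposite ways. Among all genes above the cutoff, 25.2% were higher and 23.7% lower in both lines, and below it 13.0% and 39.1%.

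**Figure D2:**
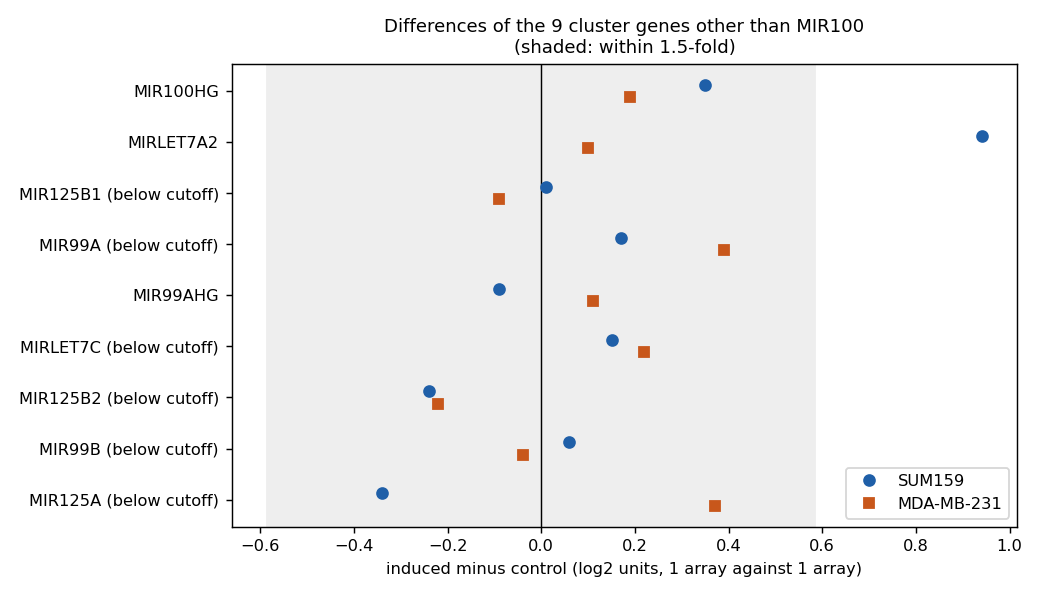
Induced minus control difference in log2 units (horizontal axis) of the 9 cluster genes other than MIR100 (vertical axis), 1 array against 1 array, with blue circles for SUM159 and orange squares for MDA-MB-231. The shaded band marks differences smaller than 1.5-fold; MIRLET7A2 in SUM159, at 0.94, is the point outside it.

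Other let-7 genes were set beside MIRLET7A2. Of 14 further genes listed, which were let-7 family members, MIR10A, MIR10B and host genes, 8 had a probeset of their own. Of these, 5 lay above the cutoff and 3 below it, and 0 of the 8 were past 1.5-fold in either line. Among all genes above the cutoff, 6.95% (SUM159) and 2.48% (MDA-MB-231) were past it either way, and below the cutoff 1.48% and 0.857%. Whether the 8 fell short of these shares was not tested. MIRLET7D had signals of 5.13 and 5.31 in SUM159 and of 5.05 and 5.10 in MDA-MB-231. MIRLET7F1 had 5.16 on both SUM159 arrays and 3.79 and 4.10 in MDA-MB-231, so both SUM159 arrays were above both MDA-MB-231 arrays. Such a separation of the lines occurred in 76% of the genes above the cutoff. MIRLET7I went from 4.79 to 4.70 in SUM159 and from 5.28 to 5.66 in MDA-MB-231, and MIR98, which shares the let-7 seed, from 4.28 to 4.55 and from 4.19 to 4.40. MIRLET7A1, which gives the same mature let-7a as MIRLET7A2, had differences of -0.23 and 0.20. MIRLET7E, which lies between MIR99B and MIR125A, had differences of 0.21 and -0.27, MIRLET7F2 of -0.03 and 0.07, and MIRLET7G of 0.22 and 0.11, all 3 on signals below the cutoff.

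Among all 1040 microRNA genes with a probeset of their own, 371 passed the cutoff. Those 371, MIR100 included, had a median difference of -0.11 (SUM159) and -0.01 (MDA-MB-231). Past 1.5-fold were 12 higher and 37 lower of them in SUM159, and 13 higher and 16 lower in MDA-MB-231. Over all genes above the cutoff, the shares were 3.95% higher and 3% lower in SUM159, and 1.69% and 0.784% in MDA-MB-231. Of the 371, MIR100 was the 1 past it the same way in both lines, beside 34 of all 14418 genes above the cutoff. Among the 669 microRNA genes below the cutoff, 4 were past it the same way in both, beside 6 of all 8047 such genes. After MIR100, the highest mean differences over lines were those of MIR21, an oncogenic microRNA gene (1.45 and 0.09), MIR3661 (0.67 and 0.44) and MIR644A (0.07 and 1.02). The lowest were those of MIR4323 (-1.54 and -0.31), MIR302F (-1.14 and -0.61) and MIR1252 (-1.12 and -0.56), the last pair on mean signals below the cutoff. By the mean difference over lines, MIRLET7A2 ranked 7 and MIR99A 44 of 1040, MIRLET7C 110, and MIR125B2 843.

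**Figure D3:**
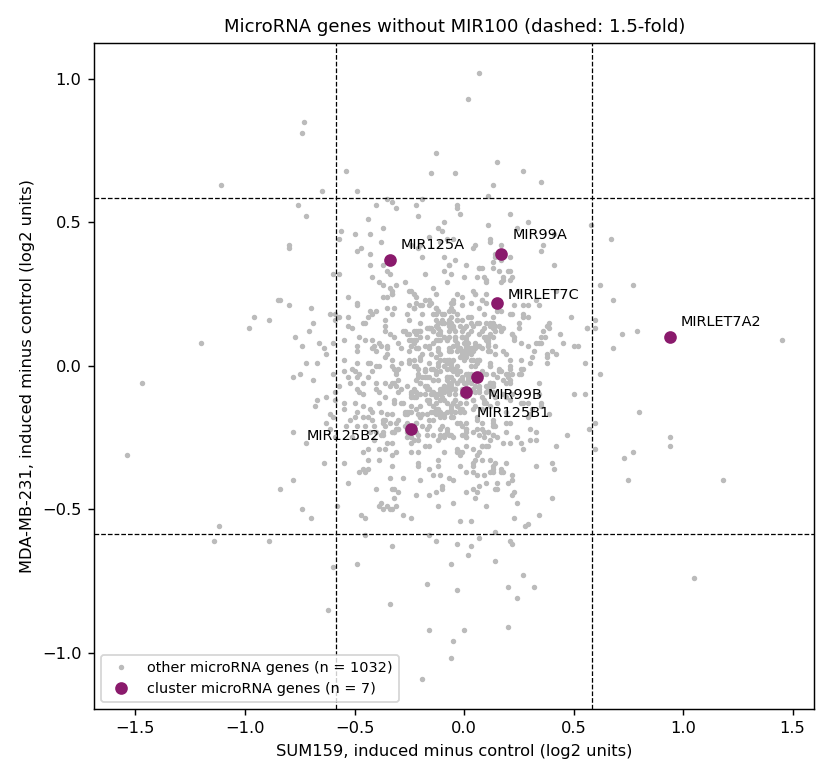
Induced minus control differences in log2 units in SUM159 (horizontal axis) and MDA-MB-231 (vertical axis) for the microRNA genes with a probeset of their own, without MIR100 (11.62 and 9.18, outside the range drawn); purple points are the 7 other cluster microRNA genes, grey points the 1032 remaining ones, and dashed lines mark 1.5-fold. MIRLET7A2, at 0.94 and 0.10, is the purple point beyond a dashed line.

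The factors that act on let-7 precursors were set beside these genes. LIN28A and LIN28B, RNA-binding proteins that block let-7 maturation, lay at 2.83 to 4.04, and TRIM71, a let-7 target of stem cells, also lay below the cutoff. Of the 6 listed genes above the cutoff, 1, DICER1, was past 1.5-fold in SUM159 and 0 in MDA-MB-231, beside 6.95% and 2.48% of all such genes. DICER1, which encodes the enzyme that cuts hairpins into mature microRNAs, had signals of 10.21 and 11.15 in SUM159 and of 11.09 and 11.39 in MDA-MB-231. Of the enzymes that add uridines to let-7 precursors, TUT4 had differences of -0.40 and 0.28 and TUT7 of 0.58 and 0.37, in SUM159 and MDA-MB-231 respectively.

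Targets of the 3 seed families were listed from general knowledge, without sequences, so that the family with the induced seed could be read beside those without it. Of 34 genes listed for the miR-99/100 seed, 28 passed the cutoff, and 19 of the 28 had the lower signal in induced cells of each line, and 2 the higher signal in each. Over all genes above the cutoff, 23.7% were lower in both lines. The median difference of the list was -0.18 (SUM159) and -0.17 (MDA-MB-231). Of 26 let-7 targets, 3 had lower signals in each induced line and 7 higher, and the medians were 0.18 and 0.00. Of 24 miR-125 targets these counts were 4 and 6, and the medians 0.06 and 0.06. Limma over both lines called 0 of all 14418 genes, and in simulated data it recovered 0% of 2-fold and 0% of 4-fold changes. It therefore could not single out listed genes, and the lists were not tested against each other. The lists were chosen with earlier results of these data known, so their counts are a description and not a test.

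By name, SMARCD1, a SWI/SNF chromatin remodelling subunit gene on the miR-99/100 list, had signals of 7.80 and 6.91 in SUM159 and of 7.89 and 7.16 in MDA-MB-231. CTDSPL, a small phosphatase gene on the same list, had 7.22 and 6.23 in SUM159 and 9.12 and 8.47 in MDA-MB-231. These were the 2 genes of that list past 1.5-fold lower in both lines. MTOR, the kinase best known as a miR-99/100 target and named here with its values known, had 8.81 and 8.44 in SUM159 and 9 and 8.34 in MDA-MB-231. The let-7 and miR-125 lists had 0 genes that were past 1.5-fold in 1 direction in each line. Over all 14418 genes above the cutoff, 34 were past it the same way in both lines, 22 of them higher. On the let-7 list the largest mean differences were those of FAS, the death receptor gene (SUM159 6.41 and 7.34, MDA-MB-231 4.85 and 5.32), and DICER1, which is also on the miR-125 list. On that list, TNFAIP3, the NF-kB feedback inhibitor gene, had 8.46 and 9.72 in SUM159 and 6.39 and 6.42 in MDA-MB-231. In SUM159, 0 miR-99/100 targets were past 1.5-fold higher and 5 lower, 6 let-7 targets higher and 1 lower, and 3 miR-125 targets higher and 0 lower, beside 3.95% and 3% of all genes. In MDA-MB-231 these counts were 0 and 3, 0 and 0, and 1 and 1, beside 1.69% and 0.784%.

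**Figure D4:**
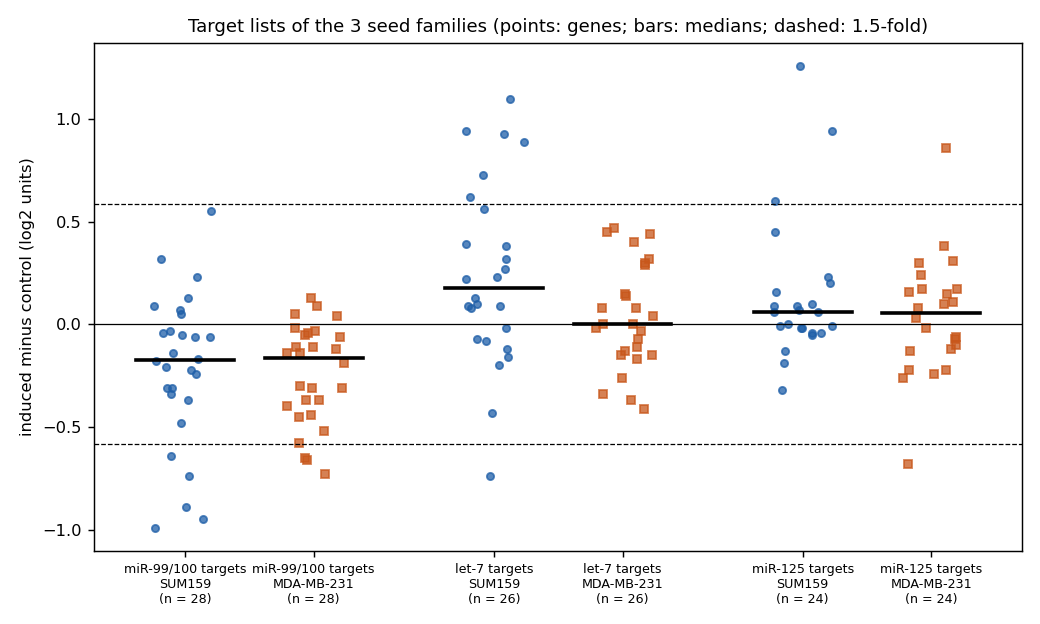
Induced minus control difference in log2 units (vertical axis) of genes above the signal cutoff on each target list, by line (horizontal axis); each point is a gene, black bars are medians and dashed lines mark 1.5-fold. The miR-99/100 medians lie at -0.18 and -0.17, below 0 in both lines, and those of let-7 and miR-125 at 0.00 to 0.18.

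Coding genes next to each cluster were read from the RefSeq order, 5 on each side. Near MIR100HG, 8 of 10 had a probeset of their own. SORL1, a sorting receptor gene, had signals of 7.21 and 5.94 in SUM159 and of 5.38 and 5.39 in MDA-MB-231, while UBASH3B, a tyrosine phosphatase gene, had 6.30 and 7.61 in SUM159 and 12.24 and 12.14 in MDA-MB-231. These were the 2 past 1.5-fold, in opposite directions and both in SUM159. Near MIR99AHG, all 10 had a probeset. C21orf91 (7.22 and 8.64), the adhesion receptor gene CXADR (6.57 and 7.52) and TMPRSS15, which encodes the intestinal protease enteropeptidase (15.51 and 16.16), were past 1.5-fold higher in SUM159, and SAMSN1, a signalling adaptor gene (9.07 and 8.08), past it lower. CXADR, with 8.04 and 8.70, and HSPA13, named here after its value was seen (11.44 and 12.04), were past it higher in MDA-MB-231. Near MIR99B, 7 of 10 had a probeset and 0 were past 1.5-fold in either line. Of the neighbours with a probeset, 5 near MIR100HG, 8 near MIR99AHG and 2 near MIR99B lay above the cutoff. As background, 6.95% (SUM159) and 2.48% (MDA-MB-231) of all genes above it were past 1.5-fold either way. Whether the neighbours exceeded these shares was not tested.

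The genes whose 4 signals ran most like those of a member were found by Pearson's r over the 4 arrays among genes whose range was at least 1.5-fold. With 4 points a high r is common, and no p is given. For MIR100, POLR3G, a subunit of RNA polymerase III, had the highest r at 0.988, then CDIN1 (0.987), the 5S ribosomal pseudogene RNA5SP352 (0.986), HEBP1 (0.982) and ARHGAP12 (0.976), with differences of 0.34 to 0.86 log2 units in place of 9.18 to 11.62. For MIR100HG, 197 of 8151 genes had an r of at least 0.99, led by CUL4A, a ubiquitin ligase scaffold gene, RSBN1L and the ephrin receptor gene EPHA4. For MIRLET7A2 there were 6, among them the actin-binding gene LIMA1 (0.997), the mitochondrial cyclophilin gene PPIF (0.997; SUM159 10.20 and 13.30, MDA-MB-231 10.83 and 10.91) and TTC39B (0.994). For MIR99AHG there were 316 of 8152, led by POLR3B, CGRRF1 and HNRNPD.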

How the data were processed

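Total RNA was extracted with Trizol and labelled as biotinylated cDNA for Affymetrix arrays, per the labels' protocols. Log2 signals, 1 for each array and probeset, are what the authors deposited, from 1.54 to 19.86, with array medians of 4.00 to 4.07. The submitters' processing notes name Expression Console and Transcriptome Analysis Console, both of Affymetrix. Their versions, the summarisation and the scaling are not given in the sources used, so any step that equalised the arrays is unknown.

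Of 70523 probesets, 23781 had 1 gene symbol, 1543 several and 45199 none (the last kinds enter no gene value and only a count of unnamed probesets). The brightest probeset represented a gene, and 14418 of 22465 genes passed the cutoff. Gene IDs stood beside 21545 of the single-symbol probesets, and 21497 matched RefSeq GRCh38.p14, which changed 0 symbols; coordinates and sequences are RefSeq's. limma 3.58.1 (R 4.3.3) was run on all 4 arrays with line or state as a block, two-sided, with Benjamini-Hochberg adjustment over all kept genes. It was tested on simulated data, where it called only part of the largest changes and none of the smaller ones. Hairpins were aligned with Biopython 1.88 (match 1, mismatch -1, gap opening -2, extension -0.5).

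The 10 genes and the lists were chosen with earlier results of these data known. Named genes were all 10 genes, the 5 (MIR100) or 3 most correlated genes, listed genes past 1.5-fold, or the 2 largest mean differences of a target list, and the 3 highest and 3 lowest microRNA genes. Alternatives were quantile normalization, median centring, mean probesets, 2 other cutoffs, 2-fold, and fits without a block. The labels do not say that arrays came from separate cultures.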

Additional observations from a re-analysis of the deposited data

Results flagged for a closer look

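In 4 of the 10 genes the single array pair of SUM159 and that of MDA-MB-231 moved in opposite directions on induction, and none of these differences between lines was tested. So did 6806 of 14418 genes above the cutoff and 3376 of 8047 below it, so such a split is common on this array. MIR125A had differences of -0.34 (SUM159) and 0.37 (MDA-MB-231), on signals below the cutoff. MIR99AHG stood at -0.09 and 0.11, MIR125B1 at 0.01 and -0.09, and MIR99B at 0.06 and -0.04. Outside the named genes, 28 of 46742 probesets with no symbol or several symbols had induced signals past 2-fold higher in each line, and 27 past 2-fold lower. The largest difference shared by both lines among them was 4.48 and 3.69 log2 units, and 0 of them reached the MIR100 difference of 9.18 in both lines.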

How the results depend on the processing

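Under quantile normalization, median centring and the mean of a gene's probesets, 0 of 60 member differences changed sign and the largest move was 0.19 log2 units, that of MIR100 in SUM159 (11.43 after quantile normalization). The mean of probesets could not change them, since each member has 1. The members past 1.5-fold in SUM159 numbered 2 under both scalings and 1 at 2-fold, where MIRLET7A2 drops out; members are counted whatever their signal, so the cutoff could not change this. At the stricter cutoff, the 75th percentile of mean signals, MIR100 alone of the members is tested, so the count of members called between lines went from 1 to 0. MIR100HG was called in every other setting, with limma adjusted p from 0.0102 to 0.0296. In the induction fit 0 genes were called in any setting, with an adjusted p for MIR100 from 0.158 to 1. Of the miR-99/100 targets, 16 of 28 were lower in both lines after quantile normalization, 14 after centring and 12 of 19 at the higher cutoff, beside 24.7%, 15.6% and 18.9% of all genes; these settings for the lists were chosen after seeing the data. After centring, 0 of 24 miR-125 targets were lower in both. With 1 array per group, no test within a line was possible. In the induction fit, the block on cell line pairs the control and induced array of each line. Signals near or below the cutoff limit what can be seen of 6 of the genes.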
